A study of Mus musculus with 3 samples.

Results

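Osteocalcin-high skeletal cells of the adult mandibular condyle were chosen by measured UMIs: they are the cells of the 13w library in which the osteocalcin genes Bglap and Bglap2 together gave at least 5 of every 10000 UMIs (unique molecular identifiers, each standing for 1 counted RNA molecule) and which held no UMI of Ptprc, the pan-leukocyte gene CD45, or Pecam1, an endothelial gene. By this rule 752 of the 8028 kept 13w cells were members (9.37%, 95% exact binomial interval 8.74 to 10.0), out of 16589 kept cells in the 3 libraries of the study. Kept cells had at least 500 detected genes and at most 10% mitochondrial UMIs. Members were further split by Col9a1, a chain of cartilage collagen IX: 336 had at least 3 Col9a1 UMIs per 10000 (Col9a1-high) and 416 had less (Col9a1-low), so that 44.7% of members were Col9a1-high (41.1 to 48.3).

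The study sampled the condyle, the jaw side of the temporomandibular joint, of wild-type C57BL6 mice: embryos (E16.5), newborns (P0) and adults aged 13 weeks (13w). Condyles of 7 to 20 mice were pooled per age, digested with collagenase A and dispase 2, and live cells (taking up Calcein AM, excluding DAPI) were sorted into 1 droplet library per age. No mutant, treatment or sex is named in the labels, and digestion and live sorting set which cells could be seen. With 1 pooled library per age there is no replicate: values are UMIs per 1000000 (CPM) in the summed cells of a group, intervals cover counting error only, no p-value is given, and "higher" or "lower" means a 2-fold or greater ratio with a 95% counting interval that excludes 1, for a gene with at least 10 CPM in the higher group. Because Bglap, Bglap2 and Col9a1 chose the groups in the same cells, all contrasts between groups describe this library and test nothing.

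Osteocalcin is a small protein that osteoblasts secrete late in their maturation; glutamates in it are carboxylated with vitamin K, which lets it bind bone mineral. Alkaline phosphatase (Alpl) and bone sialoprotein (Ibsp) act earlier and are also made by hypertrophic chondrocytes, the enlarged cells at the base of growth cartilage that make collagen X (Col10a1) and Indian hedgehog (Ihh). The condyle is a secondary cartilage that is replaced by bone from below, so cartilage cells, hypertrophic cells and bone-forming cells lie close together in it.

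The 13w library gave 115836876 UMIs in 8899 barcodes. Median depth was 21804 UMIs in Col9a1-high members and 24358 in other Col9a1-high cells without Ptprc or Pecam1 (1246 cells), against 7916.5 in Col9a1-low members and 9708 in other Col9a1-low cells (5599). The 431 cells with Ptprc or Pecam1 had 9500, and among them 148 cells rich in the neutrophil granule genes S100a8 and S100a9 had 6444.5. The number of cell barcodes shared between pairs of libraries was 14, 11 and 8, and 2 members had such a barcode. Markers of blood and vessel cells were low in members, in part by the rule, which keeps out cells with Ptprc or with the endothelial marker Pecam1. The summed level of 6 neutrophil markers was 91.3 CPM in Col9a1-high and 30.8 CPM in Col9a1-low members, against 237360 CPM in the neutrophil cells. Endothelial markers summed to 1.60 and 4.01 CPM, and mast cell markers were at 0 in both. Osteoclast markers summed to 120 and 403 CPM, against 1272 CPM in the cells with Ptprc or Pecam1. Whether RNA of other cells has a part in the results was not tested.

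Osteocalcin ranged widely among members. The lowest member had 5.0 osteocalcin UMIs per 10000, the median 11.8 and the highest 813, from 1832 UMIs in 1 Col9a1-low cell. Of the members, 96 lay just inside the threshold, at 5 to under 6 per 10000, while 137 cells lay just outside it at 4 to under 5. Shallow cells passed on few molecules: 41 members (5.45%) had fewer than 3 osteocalcin UMIs, 35 of them Col9a1-low. Around the Col9a1 threshold, 23 members were at 2 to under 3 per 10000 and 27 at 3 to under 4, and 305 had no Col9a1 UMI.

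At least 1 osteocalcin UMI was present in 65.0% of other Col9a1-high cells, 18.9% of other Col9a1-low cells and 4.73% of neutrophil cells, which should lack the gene. These shares are not thinned, and median depth differed between the groups. With cells thinned to 3000 UMIs, Bglap was found in 17.7% of other Col9a1-high cells and 4.67% of other Col9a1-low cells (4.12 to 5.27). It was found in 3.68% of neutrophil cells (1.20 to 8.37) and 6.08% of cells with Ptprc or Pecam1 (3.93 to 8.91). Other Col9a1-low cells thus did not stand above either of these for Bglap, as the intervals overlap. At the threshold of the rule, without thinning, the share was 0.676% in neutrophil cells (1 of 148) and 2.09% in cells with Ptprc or Pecam1 (9 of 431), the latter being kept out of the members. Members made up 21.2% of Col9a1-high cells (19.2 to 23.3) and 6.92% of Col9a1-low cells (6.29 to 7.59). The same rule found 1 of 4562 kept cells at E16.5 and 0 of 3999 at P0, which allows a share of up to 0.0750% when 3 counts are taken as the limit of a count of 0 (exact binomial upper bound 0.0922%).

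**Figure D1:**
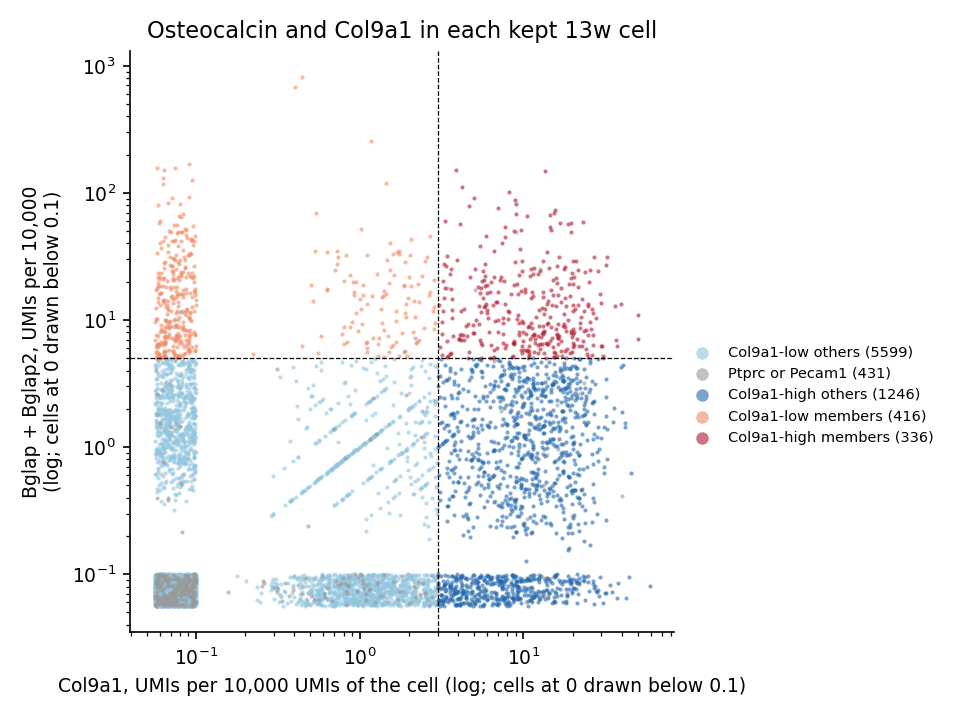
Each point is 1 kept cell of the 13w library, with Col9a1 (x axis) and Bglap plus Bglap2 (y axis) in UMIs per 10000 UMIs of the cell, both on log axes, and cells at 0 spread below 0.1. Dashed lines mark the thresholds of 3 and 5, above which lie the 336 Col9a1-high and 416 Col9a1-low members, and members continue without a gap into the cells just under the osteocalcin threshold.

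Of the markers given for these cells, Bglap and Bglap2 were high by rule, and the others went their own ways. Bglap stood at 1150 CPM (1127 to 1173) in Col9a1-high and 1754 CPM (1714 to 1796) in Col9a1-low members, against 82.6 and 17.8 CPM in the other cells of the same class. The summed level of Ibsp was not raised with osteocalcin in the Col9a1-high class, where members had 24662 CPM (24554 to 24770) and other cells 42441 CPM (42370 to 42513). In the Col9a1-low class Ibsp was 8949 CPM in members and 5608 CPM in others, close to the 5190 CPM found in neutrophil cells. The summed level of Alpl differed little in the Col9a1-high class, at 1187 CPM (1164 to 1211) in members and 1160 CPM (1148 to 1172) in others. It was 3.60-fold higher in Col9a1-low members, at 726 against 202 CPM. Hhip, a hedgehog-binding membrane protein, was 52.0 and 87.7 CPM in the member classes and 60.04 and 90.7 CPM in the others. With cells thinned to 3000 UMIs, Ibsp was found in 91.1% of Col9a1-high members (87.5 to 94.0) and 81.9% of others (79.7 to 84.1). In the Col9a1-low class it was found in 74.8% (70.2 to 79.0) and 53.0% (51.7 to 54.4). Alpl was found in 86.2% of Col9a1-high members and 75.2% of others. Hhip shares were 11.7% and 15.2%, and 13.4% and 14.4% in the Col9a1-low class. The name osteocalcin-high therefore holds by rule, while Hhip does not set these cells apart. Ibsp was found in more of the members in both classes, but its sum was lower in Col9a1-high members.

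The promoters of the osteocalcin gene and of a pair of genes that differed in opposite directions between Col9a1-high members and other Col9a1-high cells, Chad (chondroadherin, a leucine-rich matrix protein that binds chondrocytes and collagen) and Col10a1, are shown here because these genes carry the contrast described next. Each is the 250 bases upstream of the annotated start on the gene's strand, from RefSeq on build GRCm38.p6, an earlier build than the GRCm39 of the counts. Capitals mark ACCACA, the core of RUNX binding sites, and TATAAA, the TATA box sequence, each searched on both strands.
Bglap, chr3:88384467-88384716, minus strand: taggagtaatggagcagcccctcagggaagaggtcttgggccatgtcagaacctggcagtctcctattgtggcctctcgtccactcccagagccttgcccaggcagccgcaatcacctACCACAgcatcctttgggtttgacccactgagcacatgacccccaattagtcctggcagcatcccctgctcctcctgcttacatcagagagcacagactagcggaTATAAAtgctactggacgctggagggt
Chad, chr11:94564797-94565046, plus strand: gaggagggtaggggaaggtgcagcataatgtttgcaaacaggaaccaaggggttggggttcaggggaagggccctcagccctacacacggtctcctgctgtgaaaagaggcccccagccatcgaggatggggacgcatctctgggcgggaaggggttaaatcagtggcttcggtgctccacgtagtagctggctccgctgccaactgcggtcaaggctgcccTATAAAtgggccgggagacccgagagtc
Col10a1, chr10:34389731-34389980, plus strand: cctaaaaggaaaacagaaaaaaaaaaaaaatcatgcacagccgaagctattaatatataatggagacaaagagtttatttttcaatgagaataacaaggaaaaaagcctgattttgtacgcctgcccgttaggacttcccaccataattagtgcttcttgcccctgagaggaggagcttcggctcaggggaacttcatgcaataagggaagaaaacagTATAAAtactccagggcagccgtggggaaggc
TATAAA lay 27 bases upstream of the start in Bglap, 28 in Chad and 32 in Col10a1, and 12.4% of 32851 such windows hold it on either strand. ACCACA was present in the Bglap window alone of these 3, 132 bases upstream of the start, and 14% of windows hold it. These matches describe the letters only.

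In Col9a1-high cells, members differed from the other cells by few genes. Members had more Chad and less Col10a1 and Ihh, the genes that mark hypertrophic cartilage, and less cell cycle RNA. Among the 6957 genes measured here, 7 (0.101%) stood higher in members and 57 (0.819%) lower; after thinning to 3000 UMIs per cell these were 58 and 152. The 7 were Bglap, Bglap2, Bglap3, Chad, Cytl1, Mmp3 and Pla2g5, the last of which encodes a secreted phospholipase. Mmp3, a matrix protease named after its values were seen, was at 19.4 CPM in members and 6.99 CPM in others.

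Chad was 4525 CPM (4478 to 4571) in Col9a1-high members and 2107 CPM (2090.8 to 2122.5) in other Col9a1-high cells, a 2.15-fold ratio. After each cell was thinned to 3000 UMIs, 95.1% of these members (92.2 to 97.2) and 83.3% of the others (81.0 to 85.3) held a Chad UMI, against 19.1% of neutrophil cells; without thinning the shares were 97.6%, 93.1% and 34.5%. Chad also followed osteocalcin by degree in this class. It was 1622 CPM in cells with no osteocalcin UMI, 2118 CPM above 0 to under 3 per 10000, 3112 CPM at 3 to under 5, 3912 CPM at 5 to under 10, 4614 CPM at 10 to under 20, 5937 CPM at 20 to under 50 and 5364 CPM at 50 or more. The first 3 of these bins lie outside the members, so higher Chad was present below the threshold as well.

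Col10a1 went the other way. It was 290 CPM (278 to 302) in Col9a1-high members and 1298 CPM (1286 to 1311) in the other Col9a1-high cells, 4.48-fold lower. Over the same bins it was 1372, 1396, 651, 452, 143, 168 and 10.4 CPM, so that the 25 Col9a1-high members with the most osteocalcin held nearly none. Few cells carried the RNA: 5 of the 336 Col9a1-high members gave 50.7% of their Col10a1 UMIs. The thinned share of cells with a Col10a1 UMI was 15.95% in members (12.1 to 20.4) and 23.3% in others (20.9 to 25.8), with 8.82% in neutrophil cells.

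Ihh was 86.3 CPM in Col9a1-high members and 188 CPM in the other Col9a1-high cells, and Matn3, a cartilage matrilin, was 101 and 193 CPM, short of 2-fold. F13a1, the coagulation factor XIII A chain made by hypertrophic chondrocytes among other cells, was 31.1 against 125 CPM, and 1 member gave 38.3% of the member UMIs. Aldh1a3, a retinoic acid-producing enzyme, was 58.3 against 131 CPM. Some other hypertrophic genes differed less: Panx3, a channel protein, was 602 and 578 CPM, and Pth1r, the receptor for parathyroid hormone-related protein, 1758 and 1889 CPM. Mmp13, the collagenase of hypertrophic cartilage and bone, was 80.3 and 109 CPM. Ibsp, also made by hypertrophic chondrocytes, was lower in members by less than 2-fold. Over the osteocalcin bins of Col9a1-high cells it was 39532, 45172, 35296, 29216, 18740, 25462 and 14492 CPM. Of the 13 hypertrophy genes measured in this contrast 2 were lower, Col10a1 and Ihh, and 0 higher, with a median log2 ratio of −0.21 against −0.04 over all genes.

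Cytl1, a small secreted protein of cartilage, was 196 CPM in Col9a1-high members and 96.9 CPM in other Col9a1-high cells, but the value rests on few cells. A single member gave 18.0% of the UMIs and 5 gave 38.3%. With high doublet scores removed the log2 ratio was 0.63 instead of 1.02, and with every cell weighing the same 0.65. In Col9a1-low cells Cytl1 was lower in members, at 51.1 against 126 CPM.

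**Figure D2:**
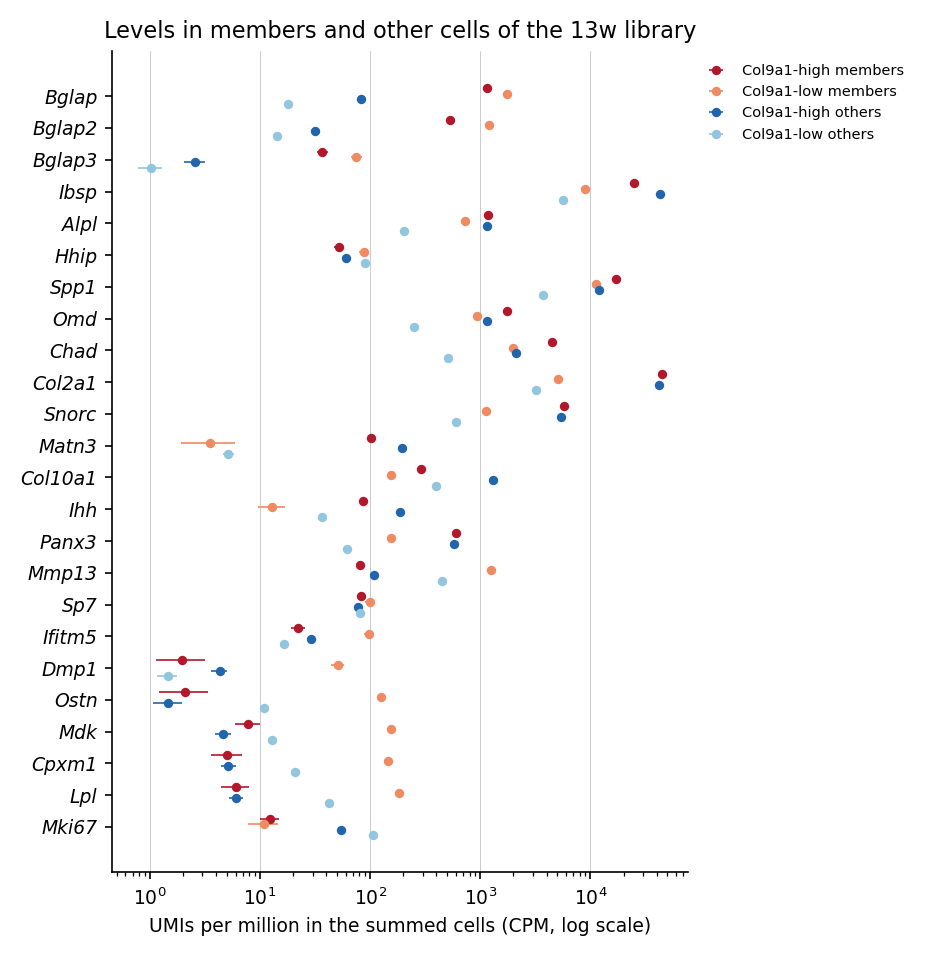
CPM on a log axis for 24 genes (rows) in the 4 groups of 13w cells without Ptprc or Pecam1: Col9a1-high members, Col9a1-low members, and the other cells of each class, with bars for 95% counting intervals. Members exceed the others in Chad (4525 against 2107 CPM in Col9a1-high cells), Col10a1 goes the other way (290 against 1298 CPM), and Ostn, Mdk, Cpxm1 and Lpl stand out in Col9a1-low members alone.

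The remaining cartilage program of the Col9a1-high members was close to that of the other Col9a1-high cells. Of 20 cartilage matrix genes measured 2 were higher, Chad and Cytl1, and 0 lower. Collagen II (Col2a1) was 44520 and 41557 CPM, Acan, the cartilage proteoglycan aggrecan, 1868 and 2210 CPM, and Snorc, a chondrocyte surface proteoglycan, 5811 and 5431 CPM. Among bone matrix proteins the 3 osteocalcin genes alone were higher, 3 of 14, with 0 lower. Spp1, the mineral-binding protein osteopontin, was 16993 against 11899 CPM, and Omd, the bone keratan sulfate proteoglycan osteomodulin, 1762 against 1158 CPM, both higher by less than 2-fold. None of 10 osteoblast transcription factors was higher or lower: Runx2, the master regulator of osteoblasts, was 113 and 107 CPM, and Sp7, acting after it, 81.8 and 77.3 CPM. None of 10 mineral and phosphate genes and none of 12 Wnt genes passed 2-fold in this class.

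In Col9a1-low cells the members differed from the rest by many more genes. Of the fixed lists, 7 of 14 bone matrix proteins, the osteocalcin genes among them, and 5 of 11 mineral and phosphate genes were higher. Lower were 10 of 17 cell cycle genes and 3 of 10 joint surface genes. Among the 7942 genes measured in this class, 215 (2.71%) stood higher in members and 235 (2.96%) lower. The other Col9a1-low cells are a mixture that includes cells of the joint surface and fibrous layers, so their average is not that of 1 cell type.

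Among genes reaching 100 CPM in these members, the highest ratios after the osteocalcin genes were those of Mdk, the growth factor midkine, at 156 against 12.8 CPM (12.2-fold), and Ostn, the secreted peptide osteocrin of bone-forming cells, at 126 against 10.8 CPM (11.7-fold). Cpxm1, a secreted carboxypeptidase-like protein, was 7.08-fold higher, Serping1, the C1 complement inhibitor, 5.77-fold, and S1pr1, a sphingosine-1-phosphate receptor, 4.74-fold. Srgn, the granule proteoglycan serglycin, was 4.67-fold higher, at 140 against 30.0 CPM. Neutrophil cells had 1825 CPM of it, and whether their RNA has a part in the Srgn value was not tested. S100a8 and S100a9 were lower in these members than in the others, which hold 33 cells with at least 10 UMIs of them per 10000, against 0 members. Col13a1, a transmembrane collagen, was 4.56-fold higher, Sfrp4, a secreted Wnt-binding protein, 4.48-fold and Lpl, lipoprotein lipase, 4.38-fold. Chad was again higher, at 1978 against 511 CPM (3.87-fold), and at 3000 UMIs per cell it was found in 40.1% of these members and 22.5% of the others.

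Of 14 bone matrix proteins 7 were higher and 1 lower in this class, with a median log2 ratio of 0.93 against −0.07 over all genes. The 7 include Bglap and Bglap2, which the rule used, and their near-identical copy Bglap3, so count and median were in part set by the choice of cells. Spp1 was 11180 against 3739 CPM, Omd 926 against 248 CPM, Serpinf1, the antiangiogenic protein PEDF, 1082 against 475 CPM, and Ifitm5, a membrane protein of mineralising osteoblasts, 97.7 against 16.5 CPM. Mgp, which inhibits mineralisation, was lower, at 836 against 1851 CPM. The collagen I genes did not reach 2-fold: Col1a1 was 14329 CPM in members and 9994 CPM in others. Beside these, Spp1 was 1184 CPM and Omd 100 CPM in neutrophil cells.

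Of 11 mineral and phosphate genes measured, 5 were higher and 0 lower in Col9a1-low members. Besides Alpl these were Smpd3, a sphingomyelinase needed for mineralisation, at 160 against 62.3 CPM, Phex, a peptidase of phosphate control, at 26.1 against 5.27 CPM, the kinase of secreted proteins Fam20c at 41.6 against 19.2 CPM, and the phosphate carrier Slc20a2 at 13.3 against 6.63 CPM. Among osteoblast transcription factors Dlx6, a homeodomain factor, was higher, at 31.6 against 15.0 CPM. Runx2 was 153 against 90.0 CPM and Sp7 99.2 against 80.4 CPM. In the Wnt list 5 of 15 were higher and 1 lower, namely Sfrp4, Sfrp2, Dkk1, Wnt5a and Wnt5b higher and Sfrp1 lower, and 4 of these 6 encode secreted antagonists of Wnt.

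Of 10 joint surface genes, 3 were lower and 0 higher in Col9a1-low members. Cilp was 8.52 against 91.2 CPM, Cilp2 80.2 against 185 CPM and Dpt 153 against 350 CPM, while Prg4, which encodes the joint lubricant lubricin, was 27.8 against 48.2 CPM. The chemokine Cxcl1 was 31.3 against 174 CPM and S100a4, a calcium-binding protein of fibroblasts, 394 against 1152 CPM. None of 18 glycolysis and hypoxia genes passed 2-fold, with a median log2 ratio of −0.51. Genes of secretory load and endoplasmic reticulum stress were higher or lower in 0 of 15 in each of the Col9a1 classes, with medians of −0.08 in both. In the vitamin K list, which holds the enzymes that carboxylate osteocalcin, the carboxylase Ggcx was 19.0 against 16.6 CPM in Col9a1-low cells and 19.5 against 20.7 CPM in Col9a1-high cells, and its partner Vkorc1 was 329 against 277 CPM and 455 against 371 CPM.

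**Figure D3:**
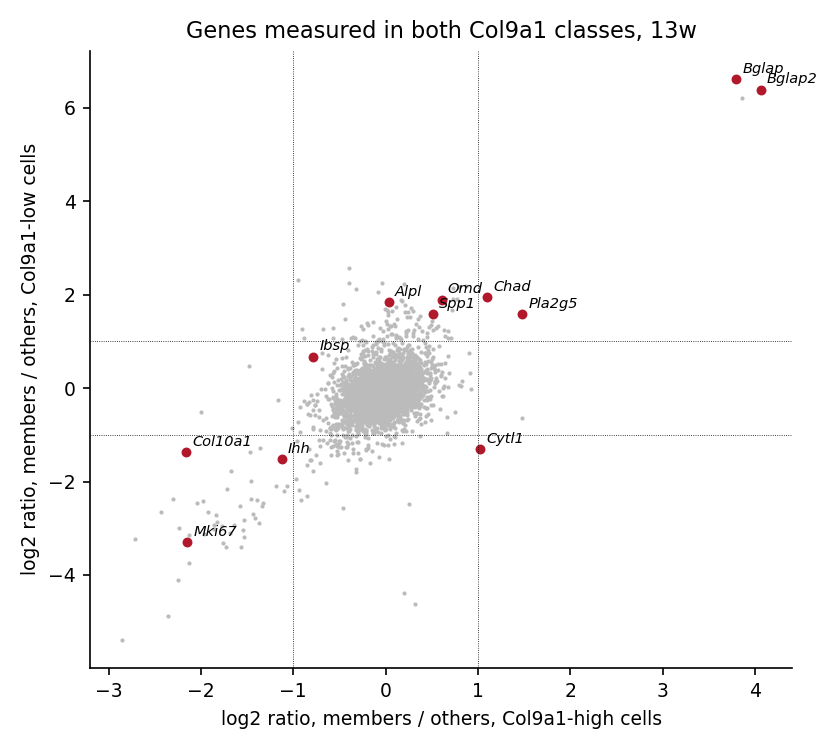
Log2 ratio of members to other cells in Col9a1-high cells (x axis) and in Col9a1-low cells (y axis) for the 6794 genes measured in both, with named genes in red and dotted lines at 2-fold. The osteocalcin genes, Chad and Pla2g5 lie to the upper right, Col10a1, Ihh and Mki67 to the lower left, and Alpl and Omd lie near or within 2-fold on the x axis but beyond it on the y axis.

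The contrasts of the Col9a1 classes shared a short list. Genes higher in both were Bglap, Bglap2, Bglap3, Chad and Pla2g5, which is 71.4% of the 7 higher in the Col9a1-high class and 2.33% of the 215 in the Col9a1-low class. Bglap and Bglap2 are shared by rule, and Bglap3 reads may stem from them. Beyond the osteocalcin genes, Chad and Pla2g5 were shared. Pla2g5 was 45.7 and 26.6 CPM in the member classes and 16.4 and 8.89 CPM in the others. Genes lower in both numbered 45, or 78.9% of the 57 and 19.1% of the 235, and besides Col10a1 and Ihh most of them act in mitosis. Over all genes measured in the Col9a1-low class, 2.71% were higher and 2.96% lower. In Col9a1-low members 1 cell gave 64.5% of all Col10a1 UMIs, and their thinned share of cells with Col10a1, 8.48%, did not exceed the 8.82% of neutrophil cells. Of the 12 hypertrophy genes measured in this class, 5 were higher and 2, Col10a1 and Ihh, lower. Those higher were Alpl, Spp1, Mmp13 (1253 against 447 CPM), Panx3 (155 against 61.9 CPM) and the membrane glycoprotein Cd200 (299 against 141 CPM).

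Cell cycle genes were low in members of both classes. In Col9a1-high cells 9 of 14 measured were lower and 0 higher, and in Col9a1-low cells 10 of 17 and 0. Mki67, present in dividing cells, was 12.3 CPM in Col9a1-high members against 54.6 CPM in others, and 10.8 against 106 CPM in the Col9a1-low class. At 3000 UMIs per cell, 3.37% of Col9a1-high members (1.70 to 5.96) and 3.60% of Col9a1-low members (1.98 to 5.96) held a UMI of Mki67 or the mitotic topoisomerase Top2a, against 7.15% (5.76 to 8.76) and 8.36% (7.63 to 9.13) of the others. Cenpf was 17.2-fold, Prc1 7.75-fold, Ube2c 6.45-fold and Stmn1, a microtubule regulator, 5.25-fold lower in Col9a1-low members than in the others of that class. Without thinning the shares of cells with Mki67 or Top2a were 13.7%, 7.21%, 15.8% and 12.4%. Member RNA of these genes came from few cells, 5 of which gave 82% of the Mki67 UMIs of Col9a1-high members. Without the cells rich in Mki67 or Top2a, 15 instead of 57 genes were lower in the Col9a1-high class and 114 instead of 235 in the Col9a1-low class, an alternative chosen after seeing the data.

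Set against all other kept cells, the members as a whole had 76 genes higher (1.0%) and 276 lower (3.64%) of 7579. Among genes reaching 100 CPM in members, the higher ones were led by Bglap2 (34.4-fold) and Bglap (32.8-fold), then Chad (3.60-fold), Mia, a small secreted cartilage protein (3.27-fold), the carbonic anhydrase-related Car8 (3.24-fold), Col13a1 (3.00-fold) and Omd (2.77-fold). Fbln7, Spp1, AW112010 and Fxyd2 were among those that followed, at 2.53-fold to 2.36-fold. Among genes reaching 100 CPM in the other cells, the lowest ratios were those of the granule genes Camp, Ngp, S100a9, S100a8, Lcn2 and Retnlg. The rule keeps cells with Ptprc or Pecam1 out of the members only, and in those cells neutrophil markers summed to 63227 CPM. Other Col9a1-low cells, which hold no Ptprc, also had more of these markers than Col9a1-low members, at 682 against 30.8 CPM. Lyz2, the lysozyme of myeloid cells, was 24.5-fold lower, and the mitotic genes Cenpf and Prc1 were 9.34-fold and 5.93-fold lower. Alpl was 2.03-fold higher here and short of 2-fold under 4 of the alternatives run: the log2 ratio went from 1.02 to 0.89 without cells rich in cell cycle RNA, 0.98 with at most 5% mitochondrial UMIs, 0.98 at an osteocalcin threshold of 10 and just under 1 without cells rich in granule RNA. With factors from TMM, which scales by the bulk of genes, the counts were 106 and 233.

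By number of genes called, members of the Col9a1 classes differed from each other more than either did from its own class. This order is in part set by the choice of groups. The member classes were split by Col9a1, while members and others of a class were matched on it. Col9a1-high members had the cartilage program, and Col9a1-low members had more RNA of fibrous matrix and collagenases than Col9a1-high members. Of 16 Wnt genes 7 were lower and 2 higher in Col9a1-high members, with a median log2 ratio of −0.73. Over the alternatives run that median went from −1.48 to 0.08, so its sign was not stable. Of 15 FGF and IGF genes 6 were lower and 1 higher in Col9a1-high members (median −0.36). Against other Col9a1-low cells, 4 of 19 fibrous matrix genes were higher in Col9a1-low members and 2 lower (median log2 ratio −0.15). Of 17 FGF and IGF genes 1 was higher and 1 lower (−0.22). By median these 2 lists were thus not higher in members within the Col9a1-low class. Of 7710 genes measured, 259 were higher (3.36%) and 793 lower (10.3%) in Col9a1-high members. TMM factors move every log2 ratio of this contrast by 0.31 and give 416 higher and 518 lower, so that higher genes are 44.5% of the calls instead of 24.6%.

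Of 20 cartilage matrix genes 16 were higher and 1 lower, in part by the choice of Col9a1. Matn3 was 101 against 3.51 CPM (28.9-fold), Cnmd, the antiangiogenic chondromodulin, 269 against 11.8 CPM, and Pcolce2, an enhancer of procollagen cleavage, 641 against 38.3 CPM. Col9a3 and Col9a2 were 9.90-fold and 9.74-fold higher and Col2a1 8.79-fold, at 44520 against 5066 CPM. Ppa1, a pyrophosphatase, was 1089 against 145 CPM, Col11a2, a chain of cartilage collagen XI, 1154 against 164 CPM, and the signalling adaptor Grb14 149.6 against 15.04 CPM. The Col9a1-low value of Col2a1 is at that of neutrophil cells (5102 CPM), and the thinned share of cells with a Col2a1 UMI was 72.8% against their 75%. Of 18 glycolysis and hypoxia genes 4 were higher and 0 lower, among them the phosphoglycerate kinase Pgk1 at 482 against 181 CPM; 1 to 12 were higher over the alternatives run.

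Lower in Col9a1-high members, that is higher in Col9a1-low ones, were Sfrp2, a Wnt-binding protein (1.35 against 114 CPM), Ostn (2.09 against 126 CPM), Serping1 (4.43 against 143 CPM), Lpl (6.02 against 184 CPM) and Cpxm1 (5.04 against 146 CPM). Igfbp5, which binds insulin-like growth factors, was 35.3 against 846 CPM, Ptn, the relative of midkine pleiotrophin, 129 against 2307 CPM, and Cdh11, the osteoblast cadherin, 17.7 against 306 CPM. Mylk, the myosin light chain kinase of contractile cells, was 8.73 against 154 CPM. Of 14 proteases and inhibitors 9 were lower and 1 higher, with Mmp13 at 80.3 against 1253 CPM and Mmp14, a membrane collagenase, at 78.3 against 657 CPM. Fibrous matrix genes were lower in 9 and higher in 0 of 17, with Lum at 735 against 2800 CPM and Postn at 789 against 3467 CPM. Tnfsf11, the osteoclast-inducing ligand RANKL, was 2.46 against 48.6 CPM, while its decoy receptor Tnfrsf11b was 184 against 72.9 CPM. With high doublet scores removed, the log2 ratio of Ptn went from −4.16 to −6.46 and that of Lrrc15 from −4.50 to −6.89.

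**Figure D4:**
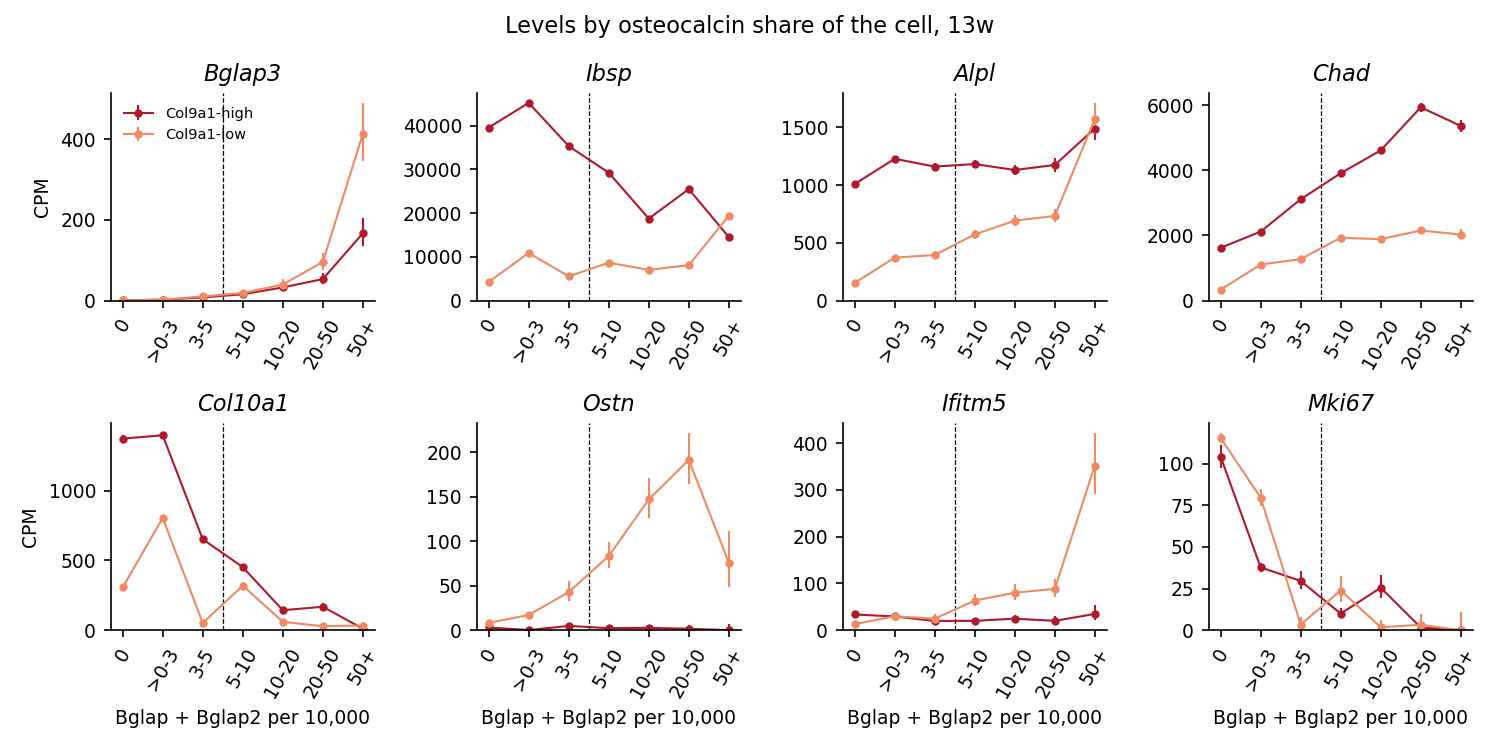
CPM (y axis) of 8 genes by osteocalcin share of the cell (x axis, Bglap plus Bglap2 per 10000 UMIs), for Col9a1-high and Col9a1-low 13w cells without Ptprc or Pecam1, with 95% counting intervals; members lie right of the dashed line. Chad is higher and Col10a1 lower toward more osteocalcin in Col9a1-high cells, Ostn reaches 192 CPM at 20 to under 50 in Col9a1-low cells, and Ifitm5 reaches 352 CPM in the last Col9a1-low bin.

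Col9a1-low members were not uniform. The 29 with at least 50 osteocalcin UMIs per 10000 had Col1a1 at 37708 CPM, against 10840 to 13865 CPM in the 3 lower member bins. Ifitm5 was 352 CPM (291 to 422) in them and 63.3 CPM (51.5 to 76.9) in members at 5 to under 10. Few cells carried it: 44 of the 416 Col9a1-low members held an Ifitm5 UMI, and 5 cells gave 43.6% of these UMIs. Alpl was 1572 CPM against 573 CPM. Genes of osteocytes, the cells embedded in bone, rested on a handful of cells: Dmp1, an osteocyte matrix protein, was 443 CPM in this bin, but 9 of the 416 Col9a1-low members held any Dmp1 UMI, 1 gave 50.2% of them and 5 gave 97.0%. Phex was 209 CPM in the same bin, and 5 cells gave 75% of the Col9a1-low UMIs. Mepe, another osteocyte gene, had 5 UMIs in all members.

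Ostn was spread differently over the osteocalcin bins of the Col9a1-low members. It was 83.3, 147, 192 and 75.9 CPM across the 4 member bins, and 13.9% of these members (10.6 to 17.7) held an Ostn UMI at 3000 UMIs per cell, against 0.735% of neutrophil cells. The 54 thinned cells with an Ostn UMI and the 335 without one were then compared, a split and a set of genes chosen after the values were seen. Lpl was detected in 85.2% of cells with Ostn (72.9 to 93.4) and 23.0% of those without (18.6 to 27.9), Cpxm1 in 64.8% and 17.3%, S1pr1 in 61.1% and 20.0%, and Mdk in 59.3% and 15.8%. Mmp13 was found in 88.9% and 56.1%.

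Other genes were found less often in the cells with Ostn, or with overlapping intervals. Ibsp was detected in 51.9% (37.8 to 65.7) against 78.5% (73.7 to 82.8), Chad in 14.8% (6.62 to 27.1) against 44.2% (38.8 to 49.7), and Col13a1 in 16.7% against 39.4%. Ifitm5 was found in 0 of 54 cells with Ostn, with an upper bound of 6.60%, and in 8.36% of those without (5.63 to 11.9), so the intervals overlap. Runx2 was found in 46.3% (32.6 to 60.4) and 35.5% (30.4 to 40.9), and Sp7 in 12.96% (5.37 to 24.9) and 22.4% (18.04 to 27.2), also with overlapping intervals. Alpl intervals overlapped, at 50% (36.1 to 63.9) and 52.2% (46.7 to 57.7), as did those of Sfrp4 at 24.1% and 20.0%. For Ibsp and Chad the shares in cells with Ostn lie at or below the 61.8% and 19.1% of neutrophil cells.

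The osteocalcin gene copies were used in different proportion in the Col9a1 classes. Bglap2 gave 31.6% of the Bglap plus Bglap2 UMIs in Col9a1-high members (30.8 to 32.4) and 40.5% in Col9a1-low members (39.6 to 41.4), or 42.6% without the cell that held the most osteocalcin. Within Col9a1-low members it was 48.4%, 48.0% and 48.2% in the 3 bins from 5 to under 50 per 10000, and 33.3% at 50 or more, while the Col9a1-high bins ran from 29.3% to 33.1%. The median cell had 30% and 50%. Outside the members, where few UMIs remain, the share was 27.9% in other Col9a1-high and 44.4% in other Col9a1-low cells. Bglap3, the remaining copy, was 36.9 CPM in Col9a1-high and 75.2 CPM in Col9a1-low members and 2.55 and 1.02 CPM in the others; it was no part of the rule. These copies are nearly identical in sequence, so how reads were divided among them is uncertain, and a part of each may stem from another.

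The same genes were read at the earlier ages in cells without Ptprc or Pecam1, with the same Col9a1 threshold. In Col9a1-high cells Bglap was 0.220 CPM at E16.5, 1.88 CPM at P0 and 298 CPM at 13w. Chad was 10.2 CPM (9.15 to 11.2), 113 CPM (111 to 116) and 2594 CPM (2579 to 2610), Omd 3.88, 20.6 and 1280 CPM, and Ibsp 2377, 2278 and 38854 CPM. Ifitm5 ran the other way, at 260, 246 and 27.9 CPM, and Col10a1 was 1529, 2568 and 1095 CPM. In Col9a1-low cells Bglap was 0.654, 1.33 and 121 CPM, and Mdk, which marked the adult members of this class, was 425, 140 and 21.4 CPM. With the Col9a1 classes pooled, Bglap2 was 76.7% of the 45 Bglap and 148 Bglap2 UMIs at E16.5 (70.1 to 82.5). The pooled P0 share was 50.8% (45.05 to 56.6) and the 13w share 35.4% (34.8 to 35.9). These shares depend on the mix of classes. Col9a1-high cells had 8 Bglap and 30 Bglap2 UMIs at E16.5, 110 and 48 at P0, and 12009 and 5350 at 13w. In Col9a1-low cells the counts were 37 and 118, 39 and 106, and 8119 and 5656. Each age is 1 pooled library with its own depth and makeup, so age and library cannot be told apart.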

How the data were processed

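Single-cell RNA was counted in 3 pooled libraries (E16.5, P0, 13w). The authors deposited unnormalised UMI counts, made per the file headers with Cell Ranger 6.1.2 and mapped to GRCm39 per the submitters' processing notes; whether introns were counted is not stated. Total counts per library were 103827875, 98486931 and 115836876. Here counts were summed over the cells of each group and scaled to CPM (Python 3.11.15, numpy 2.4.6, scipy 1.17.1). The 95% intervals are exact, of Poisson kind for sums and Clopper-Pearson for shares, with ratios taken as binomial given the total, and cover counting error only. Where a group held no count, 3 counts served as the floor of a ratio. Shares of cells were taken after thinning to 3000 UMIs, which left out 10 Col9a1-high and 27 Col9a1-low members, and 44 and 204 of the others. Scrublet (scanpy 1.11.5) marked 2 of 8028 cells (0.0249%) and was taken not to have worked, so doublets were kept, and removing the 548 highest scores, among them 60 members, was an alternative. TMM factors came from edgeR 4.0.16. The calling rule was tried on simulated Poisson sums without variation between cells. Such sums check the calculation only, as single cells can dominate the real sums.

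Members, thresholds and gene lists were chosen with earlier results of these data known. Named genes are the 12 with the highest and the 12 with the lowest ratio per contrast among called genes reaching 100 CPM in the higher group, leaving out mitochondrial, ribosomal, haemoglobin, immunoglobulin, sex-linked and predicted genes, plus members of 23 pathway and 21 marker lists; Pla2g5 was added after its values were seen. Promoter sequences are RefSeq's on GRCm38.p6 and were joined by symbol; Ostn and Bglap2 are named only. No coordinates of the counts' build were used. Of the marker lists, B cell, T cell, mural, erythroid, muscle, Schwann cell and epithelial markers each summed to at most 2.76 CPM in members. Some genes that the rule names are not reported here.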

Additional observations from a re-analysis of the deposited data

How the results depend on the processing

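No paired analysis was possible because each age has 1 pooled library. Requiring 1000 genes per cell, or leaving out the member with the most osteocalcin (an alternative added after seeing the data), left the number of members, their Col9a1-high share and the counts of called genes within 1.5 times. The number of members was 422 at a threshold of 10 osteocalcin UMIs per 10000, which is 5.26% of cells at 13w and 0 of the cells at E16.5 (0%), and members were 13.1% of 13w cells at a threshold of 3. The Col9a1-high share was 51.8% with at most 5% mitochondrial UMIs, 41.0% at the osteocalcin threshold of 10 and 38.4% at a Col9a1 threshold of 5.

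For members against the other 13w cells, higher genes numbered 140 with every cell weighing the same, 155 after thinning, 363 without a filter on low values and 39 at 50 CPM, and lower genes 1306 and 77 under the last pair. Between the member classes TMM factors gave 416 and 518, no filter 407 and 1866, and 50 CPM 139 and 232 genes. Within Col9a1-high cells, higher genes were 11 at the osteocalcin threshold of 10 and 11 with high doublet scores removed, thinning gave 58 and 152, no filter 148 and 256, and 50 CPM 4 and 9. Within Col9a1-low cells no filter gave 726 and 554, and 50 CPM 74 and 73. For the filters the cause is the number of genes that enter; for thinning and weighting the cause was not tested.

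A pair of cell sets were left out of members and others alike, an alternative chosen after seeing the data. Without cells rich in Mki67 or Top2a, lower genes were 152 for all members, 15 within Col9a1-high cells (16 higher) and 114 within Col9a1-low cells, and the log2 ratio of Top2a turned to 0.56 for all members and 0.0606 in Col9a1-low cells. Without cells rich in S100a8 and S100a9 the log2 ratios of Lcn2 and Retnlg turned to 0.031 and 0.40 for all members, and that of S100a8 to 0.0854 in Col9a1-low cells. Both sets were chosen by these or related genes, so the turns follow from the choice. The log2 ratio of Col10a1 in Col9a1-high cells was −3.19 at the osteocalcin threshold of 10. Depth limits Col9a1-low members most, at a median of 7916.5 UMIs.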

Other observations

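Levels of further genes also differed between osteocalcin bins of the members. Wif1, a secreted Wnt inhibitor, was 455 CPM in Col9a1-high members at 5 to under 10 osteocalcin UMIs per 10000 and 770 CPM at 50 or more, with 329 CPM in Col9a1-high cells that had no osteocalcin UMI. Fgfr1, a fibroblast growth factor receptor, was 327 and 633 CPM in the first and last member bins of Col9a1-high cells and 398 and 571 CPM in those of Col9a1-low cells. S100a4, a calcium-binding protein of fibroblasts, was 80.8 and 15.6 CPM in the same Col9a1-high bins and 557 and 152 CPM in the Col9a1-low bins, with 1269 CPM in Col9a1-low cells without osteocalcin. Acan in Col9a1-low cells was 1123 CPM without osteocalcin and 413 CPM in the last bin, while Chad was 336 and 2028 CPM.

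Igf1, insulin-like growth factor 1, was 121 CPM in Col9a1-low members and 58.6 CPM in other Col9a1-low cells, and 8.11 and 3.39 CPM in the Col9a1-high groups. Mesenchymal surface genes listed as progenitor candidates did not single out the members: 1 of 13 was higher and 2 lower in Col9a1-low members, with Pdgfra at 74.7 against 52.5 CPM and Cd34 at 1.5 against 20.6 CPM. The 2 members whose barcode recurs in another library were kept.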
